A study of Mus musculus with 8 samples.

Results

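Interferon-stimulated genes are the genes that cells switch on when they sense interferon. The list held 39 of them, taken by name from 21828 mouse genes (21827 that the GENCODE vM21 annotation types as protein-coding, plus Mx2, typed there as a polymorphic pseudogene). All 39 were found. Each was described by its promoter, from 1000 bp upstream to 200 bp downstream of every annotated transcription start site (TSS), and by the rest of its gene body. The rule used gene names and no measured value.

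Interferons are secreted when receptors inside or on the cell detect viral or bacterial nucleic acid. Type I interferons bind the receptor pair encoded by Ifnar1 and Ifnar2, whose kinases JAK1 and TYK2 phosphorylate STAT2. A complex that holds STAT2 and IRF9 then binds the interferon-stimulated response element (ISRE) in target promoters. Interferon gamma acts on another element, the gamma-activated site (GAS). The products of the target genes degrade viral RNA, block its translation, tag proteins with the ubiquitin-like ISG15 and feed back on the pathway. Spleen is rich in the B cells, T cells and macrophages that respond to interferon.

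Open chromatin was profiled in spleens of 8-week-old C57BL/6J mice of both sexes that had been fixed in formalin and embedded in paraffin (FFPE). The labels name no interferon treatment or infection. ATAC-seq marks open DNA because the transposase Tn5 inserts adapters where chromatin is accessible. The tagmented nuclei were purified with reverse crosslinking (+RV), which frees DNA from formaldehyde-bound protein, or without it (−RV). The 8 samples comprised 2 bulk libraries of each condition and 4 single-cell samples. Fragments of the single-cell samples came as 1 pooled set per condition, so comparisons between these sets had no replicate check. The study's supplement calls the bulk libraries technical replicates, and tagmented nuclei were divided between the conditions, so p-values here measure technical spread.

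The bulk peak lists held 47755 and 47864 peaks in +RV and 32288 and 32736 peaks in −RV; the reads behind them are unknown here. The single-cell sets held 13703580 nuclear fragments from 18620 barcodes in +RV and 1592372 from 2406 barcodes in −RV, and 2 barcodes occurred in both. Levels are nuclear fragments with their midpoint in a window, per 1000000 nuclear fragments of the set (CPM), and levels of different genes are compared per kb of window. A count of 3 fragments corresponds to 0.219 CPM in +RV and to 1.88 CPM in −RV, so the −RV set carried the larger error throughout. Intervals are 95% exact intervals and cover counting error only. Of the spleen markers, 7 of 8 B cell promoters and 5 of 8 T cell promoters had a peak in all 4 bulk libraries. So did 3 of 9 macrophage and monocyte promoters (Csf1r, C1qa and Lyz2 had a peak in none), 4 of 9 erythroid and 1 of 8 endothelial promoters. None of 5 neutrophil and none of 7 pancreatic acinar promoters had a peak in all 4.

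Promoter sequences are shown first for 7 of the genes, because they carry the element that defines the response. RefSeq sequences (build GRCm38.p6, the coordinates of mm10) from 250 bases before to 50 bases after the start were matched for 30 of the 39 genes, with 37 promoters among them. Not matched were Mx1, Mx2, Oas2, Usp18, Dhx58, Zbp1, Parp14, Parp9 and Rtp4. The ISRE was searched as TTTCNNTTTC and the GAS as TTCNNNGAA, on both strands. Printed below are the 250 bases before the start, read along the gene, with ISRE matches in capitals. Gbp2, Rsad2 and Stat2 were among the 10 highest single-cell levels and Oas1a and Oas3 among the 6 lowest, while Isg15 and Ifit3 were added after their values were seen, for the number of matches in them and for the missing bulk peak of Ifit3.
Stat2: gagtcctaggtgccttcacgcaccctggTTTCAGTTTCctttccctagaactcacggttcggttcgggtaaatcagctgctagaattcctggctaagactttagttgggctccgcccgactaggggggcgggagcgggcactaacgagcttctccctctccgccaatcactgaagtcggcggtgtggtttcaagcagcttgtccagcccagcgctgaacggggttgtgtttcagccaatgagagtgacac
Gbp2: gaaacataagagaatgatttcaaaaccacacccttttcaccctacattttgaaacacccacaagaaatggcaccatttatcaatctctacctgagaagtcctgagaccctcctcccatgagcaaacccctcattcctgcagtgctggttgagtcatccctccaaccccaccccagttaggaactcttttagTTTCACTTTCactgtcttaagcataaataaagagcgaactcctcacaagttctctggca
Rsad2: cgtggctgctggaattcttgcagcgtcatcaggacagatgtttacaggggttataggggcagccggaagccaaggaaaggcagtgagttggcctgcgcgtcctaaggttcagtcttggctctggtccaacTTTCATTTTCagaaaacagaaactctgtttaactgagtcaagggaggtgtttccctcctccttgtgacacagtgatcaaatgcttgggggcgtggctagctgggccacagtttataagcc
Isg15: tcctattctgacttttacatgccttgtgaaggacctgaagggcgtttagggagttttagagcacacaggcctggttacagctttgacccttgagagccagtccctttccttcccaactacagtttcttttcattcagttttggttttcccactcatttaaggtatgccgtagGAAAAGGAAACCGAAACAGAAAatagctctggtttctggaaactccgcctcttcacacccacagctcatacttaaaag
Ifit3: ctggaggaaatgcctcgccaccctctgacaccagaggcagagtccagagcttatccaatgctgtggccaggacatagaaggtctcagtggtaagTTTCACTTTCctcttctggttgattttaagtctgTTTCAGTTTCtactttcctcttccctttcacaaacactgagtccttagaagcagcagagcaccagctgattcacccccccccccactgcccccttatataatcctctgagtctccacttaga
Oas1a: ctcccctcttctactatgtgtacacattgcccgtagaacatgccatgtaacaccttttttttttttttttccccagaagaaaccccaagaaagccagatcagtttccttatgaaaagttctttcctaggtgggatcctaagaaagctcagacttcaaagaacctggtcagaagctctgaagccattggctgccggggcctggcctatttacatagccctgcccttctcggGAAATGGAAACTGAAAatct
Oas3: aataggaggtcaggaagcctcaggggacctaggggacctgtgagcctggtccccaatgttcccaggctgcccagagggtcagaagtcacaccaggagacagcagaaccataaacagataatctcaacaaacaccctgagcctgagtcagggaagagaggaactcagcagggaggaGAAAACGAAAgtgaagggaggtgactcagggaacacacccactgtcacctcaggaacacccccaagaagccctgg

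These stretches were Stat2 from chr10:128270248-128270497 (plus strand), Gbp2 from chr3:142620413-142620662 (plus strand), Rsad2 from chr12:26456453-26456702 (minus strand), Isg15 from chr4:156200819-156201068 (minus strand), Ifit3 from chr19:34583279-34583528 (plus strand), Oas1a from chr5:120907526-120907775 (minus strand) and Oas3 from chr5:120777660-120777909 (minus strand). Isg15 held 3 overlapping matches in a row, which begin at −78, −72 and −66 (negative positions count bases before the start). In Oas1a 2 overlapping matches begin at −20 and −14. Ifit3 held 2 separate matches at −156 and −122, and Stat2 had its match at −222.

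ISRE matches were found in 15 of 37 member promoters (40.5%), against 685 of 20122 promoters of the whole table (3.4%). Several matches in 1 promoter occurred in 7 of 37 member promoters (18.9%) and in 52 of all 20122 (0.258%). Of 23 member matches, 17 began within 200 bases before the start, a stretch that makes up most of the bases searched, so the count shows no clustering. GAS matches were found in 9 of 37 member promoters (24.3%), against 1555 of 20122 (7.73%). The genes with an ISRE match were Bst2, Ddx58, Eif2ak2, Gbp2, Gbp3, Gbp7, Ifih1, Ifit1, Ifit3, Ifitm3, Isg15, Oas1a, Oas3, Rsad2 and Stat2. These are descriptions of letters in a window, and a gene with no match can carry the element in another spelling or elsewhere.

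Most of these promoters were open in fixed spleen. A promoter was called when a peak of the library touched its window by at least 1 bp. In +RV 34 and 35 of the 39 were called, against 32 and 32 in −RV. Of all 21827 protein-coding genes, 12000 and 11997 were called in +RV and 10730 and 10722 in −RV, a difference of the means of 1272.5. The member means were 34.5 ± 0.707 in +RV and 32 ± 0 in −RV (SD, n = 2 libraries each), a difference of 2.5 promoters (exact two-sided permutation test, p = 0.33, the smallest value that 2 libraries against 2 can give). The member difference was 0 (p = 1) when the peak summit had to lie in the window, −1 (p = 1) with the same number of best-ranked peaks from every library and 4.5 (p = 0.33) with the 5′-most TSS alone, all by the same exact permutation test. Both +RV libraries called 32 (82.1%), against 53.6% of all protein-coding genes. Both −RV libraries also called 32 (82.1%), against 47.7% of all genes. In all 4 libraries 30 were called (76.9%), against 47.7% of all genes, and in none of the 4 libraries 2 were (5.13%), against 43.5%. In bulk tissue, fewer cells with an open promoter and a less open promoter per cell cannot be told apart.

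By role, and beside the 47.7% of all genes called in all 4 libraries, the counts were as follows, with no test between roles. All 3 transcription factors of the response (Stat2, Irf9, Irf7) were called in all 4 libraries. So were the guanylate-binding proteins Gbp2, Gbp3 and Gbp7, which attack the membranes around intracellular pathogens, and Parp14, Parp9 and Dtx3l, an ADP-ribosyltransferase group with a ubiquitin ligase. Isg15, its protease Usp18 and the ligases Herc6 and Trim25 were called in all 4 as well, as was Ifi35, a modulator of signalling. Of the 4 sensors, Ddx58 (RIG-I), Ifih1 (MDA5) and Zbp1 were called in all 4, and Dhx58 (LGP2) in 3. Of the 21 antiviral effectors, 13 were called in all 4 libraries, 2 in none (Ifit3, Oasl1), 2 in +RV alone (Oas1a, Ifitm3) and 4 in some (Ifi44, Oas2, Oas3, Oasl2). Of the 9 members not called in all 4, 5 belong to the oligoadenylate synthetase family, whose products switch on the RNA-degrading RNase L (Oasl1 and Oasl2 are its synthetase-like relatives).

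**Figure D1:**
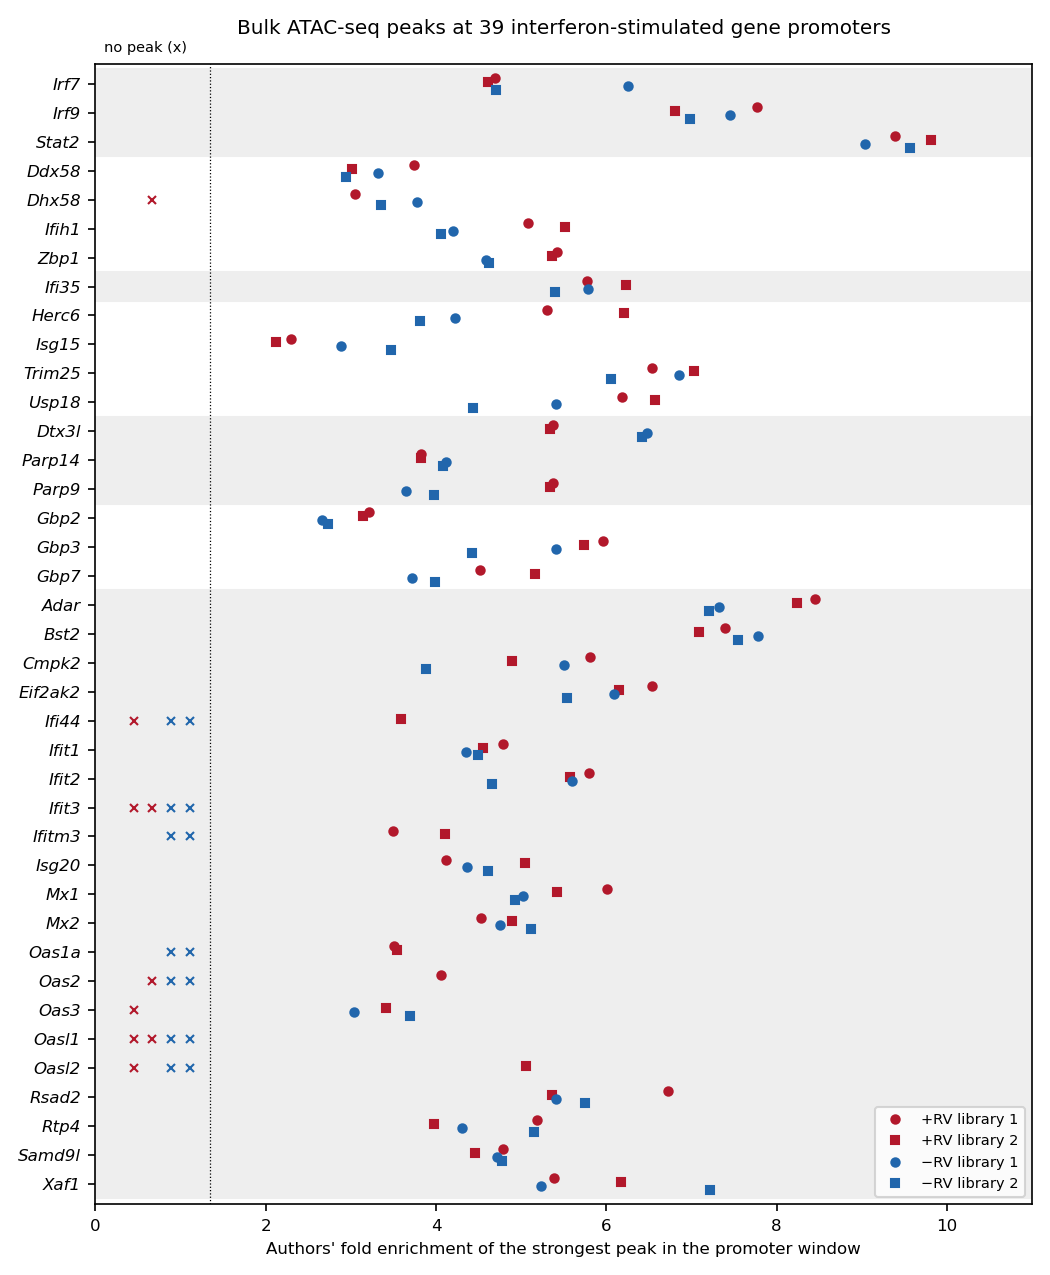
The authors' fold enrichment (x axis, ratio over local background) of the strongest peak in each promoter window for all 39 genes (y axis, grouped by role in shaded bands), with +RV libraries in red and −RV libraries in blue. Crosses at the left mark libraries without a peak: Ifit3 and Oasl1 have 4 each, while Stat2 lies between 9.04 and 9.81 in all 4 libraries.

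The deposited fold of a peak is its pile-up at the summit over the local background of the same library. Over the 30 members called in all 4 libraries the median fold was 5.38 and 5.36 in +RV, against 5.13 and 4.68 in −RV, a difference of 0.467 (exact two-sided permutation test, p = 0.33, again the smallest possible). The 2 conditions did not overlap. Over all 10402 genes called in all 4 libraries the medians were higher, 7.73 and 7.77 in +RV and 6.95 and 6.78 in −RV. Both +RV libraries exceeded both −RV libraries for 12 of the 30 members (40%, against 50.2% of all genes called in all 4). Both lay below for 5 of the 30 (16.7%, against 12.2%), namely Bst2, Dtx3l, Irf7, Isg15 and Parp14. Member peaks had median widths of 969 and 886 bp in +RV and 642.5 and 664.5 bp in −RV; widths were non-overlapping and larger in +RV for 19 of 30 (63.3%, against 79% of all genes called in all 4) and smaller for 1, Isg15 (3.33%, against 1.1%).

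Stat2, the transducer of type I interferon signals, had the strongest member peak. Its folds were 9.39 and 9.81 in +RV, against 9.04 and 9.56 in −RV, so the conditions overlapped. Irf9, its DNA-binding partner, had folds of 7.77 and 6.81 in +RV and 7.46 and 6.98 in −RV, which also overlapped. Irf7, which amplifies interferon production, had 4.69 and 4.61 in +RV and 6.25 and 4.71 in −RV, both +RV values being lower. At the other end Isg15 had folds of 2.3 and 2.12 in +RV and 2.88 and 3.47 in −RV. The +RV values were the lower ones and the lowest of any member called in all 4 libraries, while in −RV the lowest were those of Gbp2, at 2.66 and 2.73 (3.21 and 3.14 in +RV). The Isg15 peak ranked 72.3% and 85.9% down the +RV lists, against 61.2% and 42.6% down the −RV lists. With the same number of best-ranked peaks taken from every library, Isg15 was called in −RV alone, together with Dhx58.

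Oas1a and Ifitm3 had a peak in both +RV libraries and in neither −RV library, 2 of 39 (5.13%), against 3.48% of all genes. Oas1a had folds of 3.51 and 3.54 in +RV, with peaks 92.8% and 92.5% down the ranked lists. In −RV the nearest summits to Oas1a lay 76296 and 94967 bp downstream of its TSS. Ifitm3, which blocks entry of enveloped viruses, had folds of 3.5 and 4.10 in +RV, and its nearest −RV summits lay at 1698 and −6197 bp from the TSS (negative is upstream). With peaks of −log10 q of at least 5, Oas1a was called in no library and Ifitm3 stayed with +RV. The +RV lists were also the longer ones, as given above, and the part of list length in these calls was not tested. With the same number of best-ranked peaks from every library, Ifitm3 was called in +RV alone and Oas1a in no library.

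Ifit3, an antiviral effector, had no peak in any library, and its nearest summits lay at −13295 and −13284 bp in +RV and at −20967 and −13419 bp in −RV. In the single-cell sets Ifit3 had 48 fragments in +RV and 7 in −RV, a mean level of 3.29 CPM per kb, above 57.1% of genes. Of the 31-base words in its window, 69.7% occur more than once in the genome, the highest share of the 39 genes. A read no longer than such a word cannot be placed uniquely, and the part of this in the missing peak was not tested. Samd9l (53.5%), Oas1a (33.8%), Irf7 (24%) and Oasl2 (22.6%) followed. Of these, Samd9l and Irf7 were called in all 4 libraries, Oas1a in +RV alone and Oasl2 in the second +RV library alone. Oasl1 had no peak either, with nearest summits at −6241 and −6267 bp in +RV and at −6205 and −6231 bp in −RV, and 3.18% of its words are repeated.

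In the single-cell sets the members were again mostly open. The names of both sets mark their barcodes as selected on FRiT, the paper's term for the fraction of reads near TSSs. The paper counts it from 1000 bp upstream to 200 bp downstream, the promoter window used here. Barcodes thus appear to have been kept for promoter signal over all genes, and the effect on the levels and ratios below was not tested. Their promoters collected 4231 fragments in +RV and 453 in −RV. The median level was 5.49 CPM per kb in +RV and 5.23 CPM per kb in −RV. The mean of the sets had a median over members of 5.14 CPM per kb, against 1.87 over all genes, and 35 of 39 members lay above the median of all genes. By role, the medians of this mean were 8.82 CPM per kb for the transcription factors, 7.91 for the ISG15 system and ligases, 7.62 for the guanylate-binding proteins, 6.00 for the ADP-ribosylation group, 4.40 for the sensors and 3.94 for the antiviral effectors. The highest level belonged to Stat2 (14 CPM per kb, above 92.6% of genes) and the lowest to Oasl2 (0.930 CPM per kb).

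**Figure D2:**
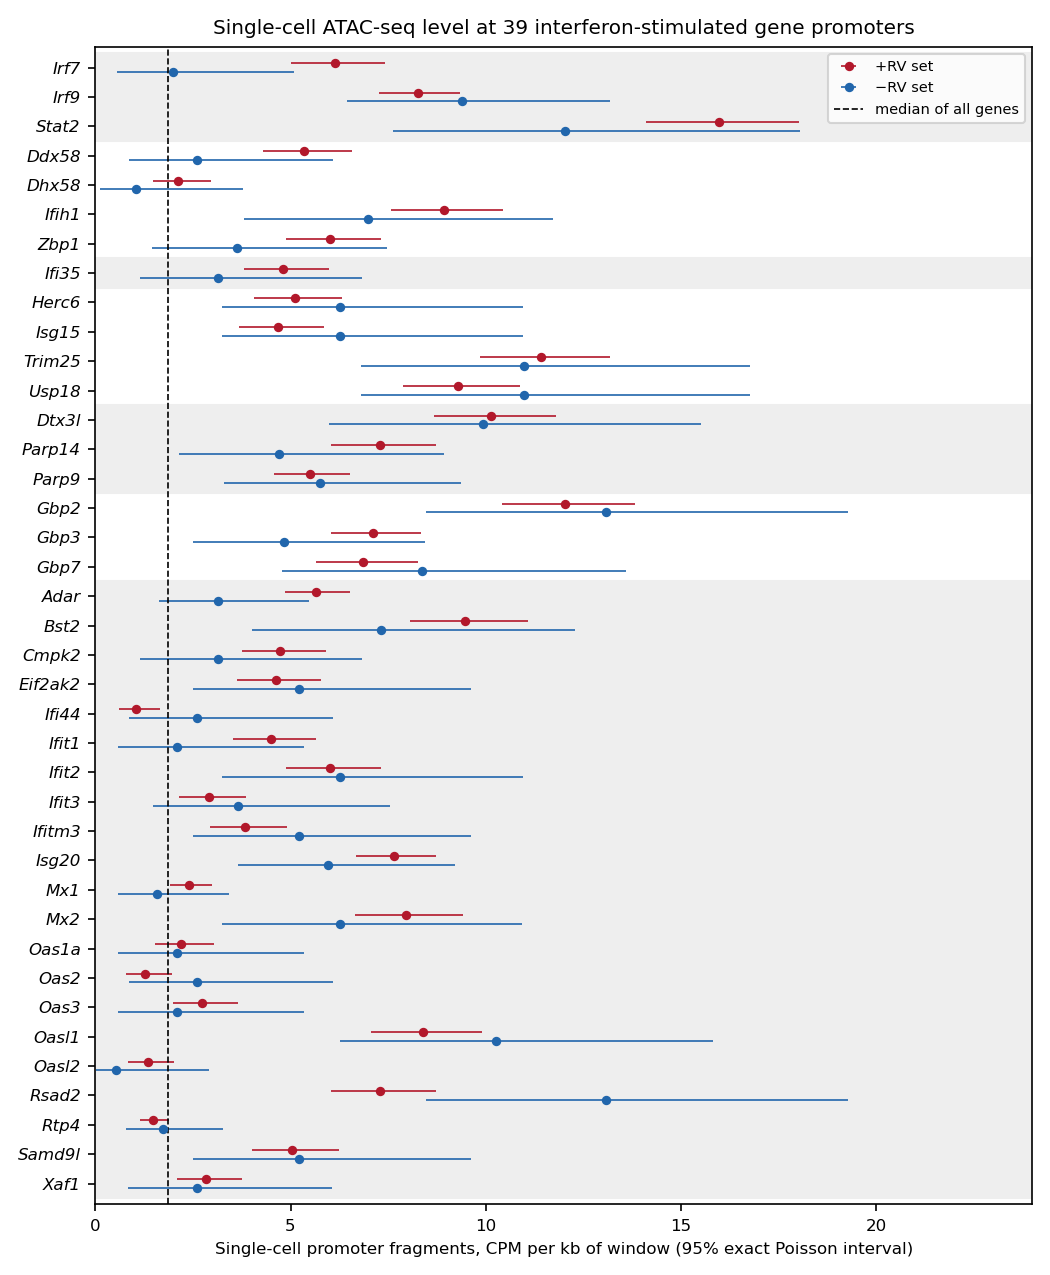
Single-cell promoter level (x axis, CPM per kb of window, with 95% exact Poisson intervals) of the 39 genes (y axis, grouped by role in shaded bands) in the +RV set (red) and the −RV set (blue); the dashed line is the median of all genes at 1.87 CPM per kb. Stat2 reaches 16.0 in +RV and 12.0 in −RV, and the −RV intervals are wider throughout because that set is smaller.

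The 10 highest totals per gene, in CPM over all its windows, were those of Irf9, Stat2, Gbp2, Isg20, Trim25, Rsad2, Usp18, Dtx3l, Oasl1 and Adar. Irf9 had 18.2 CPM (16.1 to 20.7) in +RV and 20.7 CPM (14.3 to 29.1) in −RV, over windows of 2209 bp. Stat2 had 19.2 CPM (16.9 to 21.7) in +RV and 14.4 CPM (9.16 to 21.7) in −RV. Gbp2 had 14.4 CPM (12.5 to 16.6) in +RV and 15.7 CPM (10.2 to 23.2) in −RV. The ratio interval of each of these 3 included 1. Isg20, an exonuclease that degrades viral RNA, had 16.1 CPM (14.1 to 18.4) in +RV and 12.6 CPM (7.67 to 19.4) in −RV. Trim25, the ligase that modifies RIG-I, had 13.7 CPM (11.8 to 15.8) in +RV and 13.2 CPM (8.16 to 20.2) in −RV. Usp18, which shuts off receptor signalling, had 11.2 CPM (9.47 to 13.1) in +RV and 13.2 CPM (8.16 to 20.2) in −RV. These 3 also overlapped between the sets.

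Oasl1 had 10.3 CPM (8.66 to 12.1) in +RV and 12.6 CPM (7.67 to 19.4) in −RV. At 9.33 CPM per kb it stood above 82.5% of genes although none of the 4 bulk lists had a peak in its window. The bulk lists had been filtered for blacklisted regions by the authors, and whether the Oasl1 promoter fell in one was not analysed here.

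The 6 lowest totals were those of Oasl2, Dhx58, Ifi44, Oas2, Oas1a and Oas3. Oasl2 had 22 fragments in +RV and 1 in −RV. Dhx58 had 35 fragments in +RV and 2 in −RV. Ifi44 had 17 in +RV and 5 in −RV. In −RV each of these counts was 5 or fewer, so levels cannot be ordered there. Oas2 had 1.53 CPM (0.949 to 2.34) in +RV and 3.14 CPM (1.02 to 7.33) in −RV. Oas1a had 2.63 CPM (1.84 to 3.64) in +RV and 2.51 CPM (0.684 to 6.43) in −RV, although its bulk call was +RV alone. Oas3 had 3.28 CPM (2.4 to 4.39) in +RV and 2.51 CPM (0.684 to 6.43) in −RV. The intervals of neighbours in this order overlapped.

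The summed member level was close between the sets, and whether its ratio excluded 1 depended on the window and the counting. It was 309 CPM in +RV and 284 CPM in −RV (ratio 1.09, 0.985 to 1.2), while the ratio over all promoters was 1.13 (1.13 to 1.14). As a share of all promoter fragments the members made up 0.217% (0.210 to 0.223) in +RV and 0.226% (0.206 to 0.248) in −RV. The median log2 ratio of members, with a pseudocount of 1 CPM, was 0.05 and that of all genes 0.16. Above 0 lay 22 members and below it 17, against 13827 and 7106 of all 21827 genes. With windows of 500 bp on each side of any TSS the summed ratio was 1.13 (1.02 to 1.25), and with both ends of each fragment counted it was 1.09 (1.02 to 1.17), where the ends of 1 fragment are not independent counts. Scaled to all promoter fragments it was 0.957 (0.869 to 1.06).

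The ratio interval excluded 1 on the high side for 2 of 39 members, against 4.24% of all genes, and on the low side for 1, against 1.29% of all genes. Irf7 had 106 fragments (7.74 CPM) in +RV and 4 (2.51 CPM) in −RV (ratio 3.08, 1.17 to 11.5). Its bulk folds went the other way, as given above. Adar, an RNA-editing enzyme, had 186 fragments (13.6 CPM) in +RV and 12 (7.54 CPM) in −RV (ratio 1.8, 1.01 to 3.55). Rsad2 (viperin, which makes a chain-terminating nucleotide) had 120 fragments (8.76 CPM) in +RV and 25 (15.7 CPM) in −RV (ratio 0.558, 0.360 to 0.896). Its bulk folds were 6.72 and 5.36 in +RV and 5.41 and 5.75 in −RV and overlapped. These intervals cover counting error of 1 set per condition and were not adjusted over the 39 genes.

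Some members have several promoters. At Adar (chromosome 3, plus strand) the TSS at 89715022 had folds of 4.44 and 5.03 in +RV, against 3.48 and no peak in −RV, with 40 fragments in +RV and 3 in −RV. The Adar TSS at 89730748 was the stronger one, with folds of 8.45 and 8.24 in +RV and 7.32 and 7.20 in −RV, and 146 fragments in +RV and 9 in −RV. In +RV the intervals of these promoters, 2.92 CPM (2.09 to 3.97) and 10.7 CPM (9.0 to 12.5), did not overlap. Mx1, a GTPase that traps viral nucleocapsids and is defective in this strain, was called at its TSS at 97462906 on chromosome 16 but not at 97460772. At 97462906 it had 59 fragments in +RV and 5 in −RV, and at 97460772 it had 20 in +RV and 1 in −RV. Rtp4, on chromosome 16, was called only at the neighbouring TSSs at 23609919 and 23609925 and not at 23520291 or 23609057. Windows of Rtp4 overlap those of Masp1, and the window of Ifit1 overlaps that of Ifit1bl2, so fragments there cannot be assigned to 1 gene.

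Dtx3l and Parp9 lie head to head on chromosome 16 and share promoter sequence. In +RV 1 peak spanned both, 1779 and 1760 bp wide, with folds of 5.38 and 5.34. In −RV the strongest peak of Dtx3l was 812 and 730 bp wide with folds of 6.48 and 6.42, and that of Parp9 was a separate peak of 307 and 409 bp with folds of 3.65 and 3.98. The +RV and −RV folds therefore describe differently cut peaks. Their single-cell totals were 12.2 CPM in +RV and 11.9 CPM in −RV for Dtx3l and 9.56 CPM in +RV and 10.05 CPM in −RV for Parp9.

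Around the TSS the members called in all 4 bulk libraries had a lower peak than other called genes. Fragment ends peaked in the bin at −25 bp, at a mean per gene of 1.55 ends in +RV and 1.44 ends in −RV, both scaled to the set's nuclear fragments as CPM is and counted in bins of 50 bp. All 10402 genes called in all 4 libraries peaked at 2.45 in +RV and 2.38 in −RV. The mean within 250 bp of the TSS exceeded the mean beyond 1500 bp by a factor of 6.10 in +RV and 5.07 in −RV for the members, against 13.6 in +RV and 11.8 in −RV for all called genes. The members' outer level, beyond 1500 bp, was 0.170 in +RV and 0.172 in −RV, above the 0.122 and 0.125 of all called genes.

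**Figure D3:**
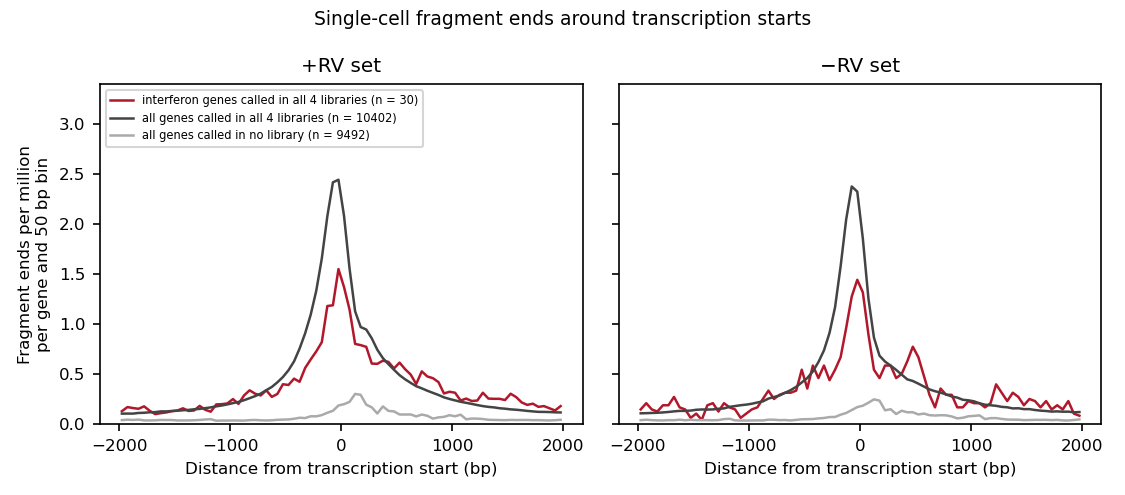
Single-cell fragment ends per 1000000 nuclear fragments, per gene and per 50 bp bin (y axis) against the distance from the TSS in bp (x axis), in the +RV set (left) and the −RV set (right). The 30 interferon genes called in all 4 bulk libraries (red) peak at 1.55 and 1.44, between the 10402 called genes (dark grey) and the 9492 genes called in no library (light grey).

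Fragments in member windows differed in length between the sets. The paper proposes DNA damage as the likely reason that longer fragments amplify poorly in FFPE samples, so length is not read here as nucleosome spacing. Member fragments of up to 100 bp made up 53.1% of 4231 fragments in +RV and 83.0% of 453 in −RV. All promoter windows gave 52.8% in +RV and 80.8% in −RV, and the whole nuclear genome 64.4% in +RV and 89.4% in −RV. The median member fragment was 94 bp long in +RV and 75 bp in −RV. Among fragments of 50 to 100 bp the summed member ratio was 0.905 (0.798 to 1.03), below the 1.09 over all lengths, and neither interval excluded 1.

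Outside the promoters the gene bodies were weakly open. Members had 0.753 CPM per kb in +RV and 0.741 CPM per kb in −RV (ratio 1.02, 0.951 to 1.09), against 0.436 in +RV and 0.441 in −RV over all genes. Peaks with a summit in a member gene body numbered 31 and 27 in +RV and 20 and 22 in −RV. In both +RV libraries 15 members (38.5%) had a body peak, against 30.9% of all genes, and in both −RV libraries 13 (33.3%), against 22.9%. Samd9l, an antiviral effector, had 3 and 4 body peaks in +RV and 2 and 4 in −RV. Ifih1 had 4 and 3 in +RV and 2 and 2 in −RV. Dhx58 had 3 and 3 in +RV and 1 and 1 in −RV, and its body level of 1.5 CPM per kb in +RV came near its promoter level of 2.13 CPM per kb. The ratio of promoter to body level in +RV was lowest for Ifitm3 (1.01, over a body of 984 bp). Dhx58 (1.42), Ifit3 (1.83) and Oasl2 (1.86) followed.

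Promoters rich in CpG dinucleotides are open in most tissues, and most of the members are poor in them. The median ratio of observed to expected CpG was 0.318 over 30 members with a sequence, against 0.599 over 16495 genes. This ratio is that of the 5′-most promoter sequence of a gene, while a call could come from the window of any TSS. Adar was classed by a ratio of 0.326, while its other promoter sequences had 0.942 and 0.532 and its stronger peak lay at its later TSS. Below a ratio of 0.4 lay 21 of 30 members, and 14 of these (66.7%) were called in all 4 libraries, against 883 of 6178 genes of that class (14.3%). At a ratio of 0.6 or more all 6 members were called, against 78.3% of genes of that class. Members with an ISRE match were called in all 4 libraries in 11 of 15 cases (73.3%), against 46.7% of all genes with a match. Members without a match were called in 12 of 15 cases (80%), against 50.5% of all genes without one. Among all genes with an ISRE match and a CpG ratio under 0.4, 71 of 344 (20.6%) were called, against 5 of 9 members with both. These are shares of lists, and no test of a difference was made.

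**Figure D4:**
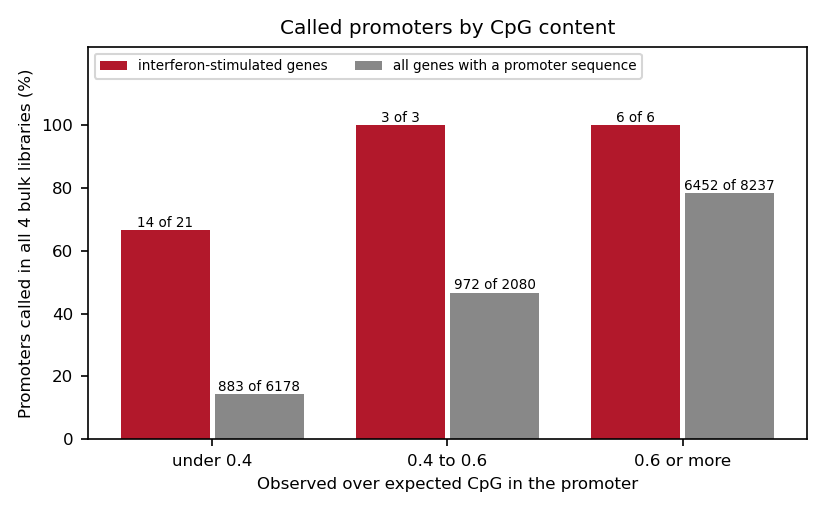
Share of promoters called in all 4 bulk libraries (y axis, percent) by the ratio of observed to expected CpG (x axis, 3 classes), for the interferon-stimulated genes (red) and all genes with a promoter sequence (grey), with counts above the bars. In the class under 0.4 the members reach 66.7% and all genes 14.3%. The ratio is that of the 5′-most promoter sequence of a gene.

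The rest of the pathway was described from a list of 49 genes. In +RV 34 and 35 of their promoters were called, against 34 and 33 in −RV, a difference of 1 (exact two-sided permutation test, p = 0.667). Of all 21827 genes, 12000 and 11997 were called in +RV and 10730 and 10722 in −RV. In all 4 libraries 33 of the 49 were called (67.3%), against 47.7% of all genes. The 12 interferon genes themselves were called in no library, and their mean levels ran from 0.0304 to 0.796 CPM per kb. Ifnb1, the first interferon made after infection, had 11 fragments in +RV and 0 in −RV. Ifng, the interferon of T and NK cells, had 12 in +RV and 1 in −RV. All 10 kinases, transducers and inhibitors were called in all 4 libraries, with a median of 9.99 CPM per kb. Of 6 receptor genes 4 were called in all 4, of 7 interferon regulatory factors 6, and of 14 sensors and adaptors 13. None was called in both libraries of 1 condition and in neither of the other.

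The median level was 8.37 CPM per kb over the receptor genes and 9.99 over the kinases, transducers and inhibitors, with 5.14 over the interferon-stimulated genes. Ifnar1 had folds of 8.75 and 9.92 in +RV and 9.21 and 9.89 in −RV, and 22 CPM per kb in +RV and 23.5 in −RV. Ifnar2 had folds of 5.55 and 6.46 in +RV and 4.55 and 5.32 in −RV. Ifngr1, a chain of the interferon gamma receptor, had 7.44 and 7.18 in +RV and 7.43 and 7.16 in −RV. The Ifnar2 conditions did not overlap, while those of Ifnar1 and Ifngr1 did. Jak1 had folds of 7.24 and 7.82 in +RV and 7.02 and 6.85 in −RV, the +RV values being higher. Tyk2 had 8.00 and 7.84 in +RV and 9.32 and 7.82 in −RV. Irf1, an early target of interferon gamma, had 6.85 and 6.37 in +RV and 7.84 and 7.82 in −RV, the +RV values being lower. Irf8, a regulator of B cells and macrophages, had 6.29 and 6.52 in +RV and 5.92 and 5.94 in −RV, the +RV values being higher.

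Cell identity was approached through barcodes with at least 3 fragments in the gene windows of 1 marker list and more than in any other list. In +RV 17658 of 18620 barcodes had no such list and in −RV 2305 of 2406, so this describes a small share of nuclei. Many assigned +RV barcodes had exactly 3 marker fragments: 261 of 400 for B cell, 112 of 149 for T cell and 73 of 89 for erythroid markers. For endothelial markers they were 141 of 194, and for macrophage and monocyte markers 18 of 25. The paper reports that its own lowered cutoffs on these single-cell data gave no genes specific to spleen cell types. Members made up 0.245% (0.205 to 0.290) of promoter fragments in 400 barcodes with B cell marker fragments in +RV and 0.236% (0.102 to 0.465) in 37 such barcodes in −RV. For T cell markers the shares were 0.251% (0.187 to 0.329) in +RV and 0.242% (0.0293 to 0.872) in −RV, from 149 and 8 barcodes. Endothelial markers gave 0.225% (0.176 to 0.283) in +RV and 0.251% (0.0817 to 0.586) in −RV. Erythroid markers gave 0.271% (0.199 to 0.360) in +RV and 0.655% (0.264 to 1.34) in −RV. The −RV value rests on 7 fragments in 8 barcodes and its interval lies above that of all −RV barcodes (0.206 to 0.248). With at least 2 marker fragments it was 0.33% (0.182 to 0.559, 14 fragments in 41 barcodes) and in barcodes with at least 1000 fragments 0.596% (0.123 to 1.73), and both of these intervals include the value of all −RV barcodes. Macrophage and monocyte markers gave 0.206% (0.0892 to 0.406) in +RV and 0.324% (0.0392 to 1.16) in −RV. Within each of these lists the intervals of +RV and −RV overlapped.

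Barcodes with pancreatic acinar marker fragments stood lower. There 28 of 25157 promoter fragments in +RV (0.111%, 0.0740 to 0.161, 104 barcodes) and 0 of 3711 in −RV (upper bound of the 95% interval 0.0994%, 28 barcodes) lay in member windows, against 0.217% and 0.226% over all barcodes of each set. In these barcodes promoters took 17.3% of nuclear fragments in +RV, against 14.2% over all barcodes, and the median barcode had 1117.5 fragments, against 667. Restricted to barcodes with at least 1000 fragments, the +RV share was 0.127% (0.0823 to 0.188) in acinar-marker barcodes and 0.210% (0.198 to 0.222) in all. No marker window overlapped a member window. With at least 2 marker fragments the −RV share was 0.102% (0.0439 to 0.200). Of the acinar-marker barcodes, 47 of 104 in +RV had exactly 3 marker fragments, a smaller share than in the other lists given above. Acinar promoters had no peak in all 4 bulk libraries. The barcodes of every list are named by their fragments and not as a cell type.

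**Figure D5:**
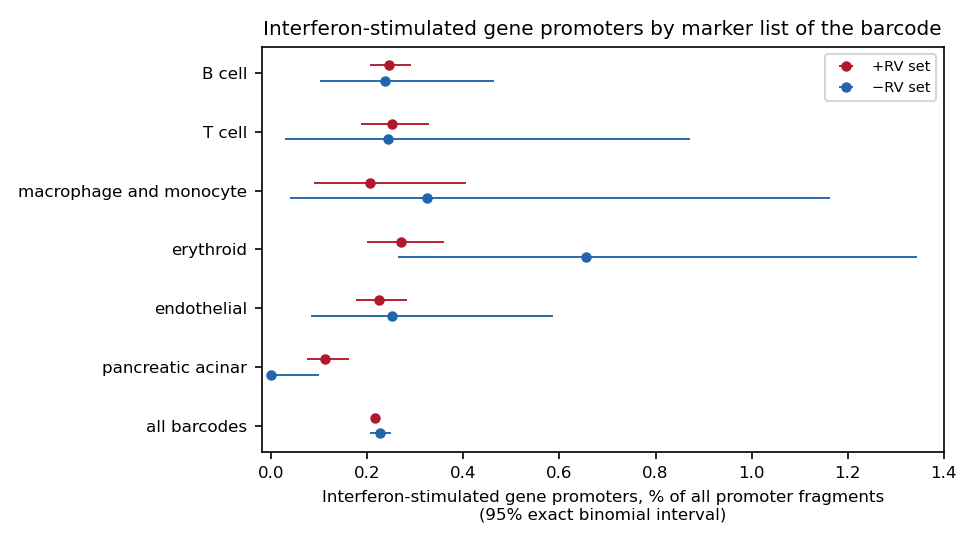
Share of promoter fragments that lay in the 39 member promoters (x axis, percent, with 95% exact binomial intervals) in barcodes grouped by the marker list whose fragments they carried (y axis), for the +RV set (red) and the −RV set (blue). The pancreatic acinar group lies at 0.111% in +RV and 0% in −RV, below the 0.217% and 0.226% of all barcodes; the neutrophil list, with 1 barcode in +RV and none in −RV, is not drawn.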

How the data were processed

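Per the authors' methods, spleen nuclei were tagmented and the DNA purified with or without reverse crosslinking. The deposited bulk files were 1 blacklist-filtered peak list per library, with a score, a fold enrichment ratio over local background and −log10 p and −log10 q values from the authors' peak caller. Build mm10 and the tools SEACR 1.3, Picard 1.119, SAMtools 1.15 and Bowtie2 2.4 are listed, with no roles, in the notes of the submitters on processing. MACS2 is stated for the single-cell workflow, and the bulk lists have its layout. The deposited single-cell files gave duplicate-free fragment positions and barcodes that the authors had selected, with replicates pooled. The condition of each set was read from its name, which also carries the term FRiT described above.

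Peaks overlapping a promoter window by at least 1 bp, and fragment midpoints in windows of 41405 TSSs, were counted with Python 3.11.15, numpy 2.4.6, pandas 2.3.3 and scipy 1.17.1, and figures were drawn with matplotlib 3.10.9. Counts were scaled to nuclear fragments (CPM), and log2 ratios used a pseudocount of 1 CPM. Libraries were compared by exact permutation, and ratios and shares carry exact intervals. The counting steps were tested on simulated data. Genes given in full were the 10 highest and 6 lowest by mean CPM, those whose bulk call or ratio interval differed between conditions, Adar by TSS, and pairs sharing a window. The members and lists were chosen with earlier results of these data known. Alternatives covered peak strength, list length, window, scaling, fragment length, barcode depth, marker minimum and single libraries. Values of some genes of the lists are not reported here.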

Additional observations from a re-analysis of the deposited data

How the results depend on the processing

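Of 119 alternative values, 1 reversed and 15 moved past the error or the 1.5-fold limit set for them. Differences between bulk libraries, in promoters called and in median fold, were judged by sign alone, and a value of 0 counted as unchanged. The other 103 were unchanged by these rules, some of them with sizeable shifts. With the same number of best-ranked peaks taken from every library, the difference in member promoters called per library, +RV minus −RV, was −1 (exact permutation test, p = 1), against 2.5 as reported, and it was 0 (p = 1) with the summit inside the window and 4.5 (p = 0.33) with the 5′-most TSS alone. For the pathway list it was 0 (exact permutation test, p = 1) with equal numbers of peaks and 2 (p = 0.33) with the 5′-most TSS, against 1. The median fold difference was 0.805 (exact permutation test, p = 0.33) for the peak nearest a TSS. The median log2 ratio of member promoters was 0.34 in barcodes with at least 1000 fragments, −0.17 for fragments of 50 to 100 bp and −0.11 when scaled to promoter fragments, and −0.05 over members with a mean of at least 5 CPM. The summed ratio was 0.905 for fragments of 50 to 100 bp and 0.957 when scaled to promoter fragments; its interval excluded 1 with windows of 500 bp on each side (1.13) and with both fragment ends counted (1.09). The cause was not tested. With at least 4 marker fragments, −RV erythroid barcodes had a member share of 0.956%. At that minimum the member share in +RV was 0% for macrophage and monocyte and 0.294% for endothelial barcodes, and in −RV 0% for B cell, T cell and endothelial barcodes. In barcodes with at least 1000 fragments it was 0.210% over all +RV barcodes, and in −RV 0.0932% for B cell and 0% for T cell and macrophage and monocyte barcodes. With at least 2 marker fragments it was 0.102% for −RV acinar barcodes and 0.33% for −RV erythroid barcodes. Leaving fragments in marker windows out of the total, an alternative chosen after seeing the data, gave 0.112% for +RV acinar barcodes.

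Leaving out 1 library at a time gave differences of 2 to 3 for members called, 0.5 to 1.5 for pathway promoters called and 0.244 to 0.689 for the median fold. Members called in the remaining library numbered 34 to 35 in +RV and 32 in −RV. Without the first −RV library the median fold difference was 0.689 and without the second it was 0.244. With the replicate number as a replicate block, the differences were 2.5 (exact permutation test, p = 0.5), 1 (p = 1) and 0.467 (p = 0.5), where 0.5 is the smallest p possible. Deviations of same-numbered libraries had a correlation of −0.00742 over 10403 genes. This cannot tell whether same-numbered libraries came from the same divided nuclei, which the labels do not state. The −RV set held 453 member fragments, against 4231 in +RV, which limits the single-gene comparisons.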
